A study of Homo sapiens with 4 samples.

Results

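The mRNA levels of 8 genes whose products mark migrasomes (Migs) or take part in making them were examined in MHCC-97H cells. The study describes these cells as a highly metastatic hepatocellular carcinoma (HCC) line. The 8 genes are among the 58735 genes of the deposited tables. The genes were listed by name, found by symbol in the FPKM table and by Ensembl identifier in the table of reads, and all 8 were found in both. EOGT, CPQ, PIGK and NDST1 are markers, described as proteins enriched in Migs. SGMS1, SGMS2, PIP5K1A and RAB35 act in steps of Mig formation. The recipient cells carried wild-type CD147 in all 4 libraries, were treated for 24 h, and gave 1 library per condition. The first library came from cells given PBS. The second came from cells given 2 μg of Migs that MHCC-97H cells had released in normoxia (normo-Migs). The third came from cells given 2 μg of Migs of the same line in hypoxia (hypo-Migs), and the last from cells given 2 μg of Migs that CD147-knockout MHCC-97H cells had released in hypoxia (CD147KO-Migs). The knockout was made in the donor cells, so CD147 reads of the recipient cells do not check it. The comparisons ask how the RNA of recipient cells differs with the origin of the Migs they took up. They concern the recipient cells' RNA and not the protein content of the Migs.

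Migs are large vesicles that grow on the retraction fibres a migrating cell leaves behind, and they are released into the surroundings or taken up by other cells. Sphingomyelin is made by the synthases SGMS1 and SGMS2, and Mig formation begins at sites of the cell membrane where SGMS2 gathers. PIP5K1A then makes the lipid PI(4,5)P2 at these sites, which recruits the small GTPase RAB35, and RAB35 brings in integrin α5. Tetraspanins such as TSPAN4 and cholesterol then gather in domains that let the vesicle swell. Among the markers, EOGT adds N-acetylglucosamine to EGF repeats of secreted and membrane proteins, CPQ is a secreted carboxypeptidase, PIGK is the catalytic subunit of the transamidase that attaches GPI anchors, and NDST1 modifies heparan sulphate chains by N-deacetylation and N-sulphation.

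PIGK, NDST1 and SGMS1 are shown with the 250 bases before a RefSeq transcription start (GRCh38.p14). They were higher beyond counting error, by at least 0.486 on the log2 scale, in each Mig library than in the PBS library. That limit is the value of PIGK with hypo-Migs, so it was read from these data. It leaves out RAB35, which was higher beyond counting error by 0.18 to 0.29. Matches to the E-box CANNTG, the short motif bound by basic helix-loop-helix factors such as TWIST1, which the study followed, are in capitals. The motif reads the same on both strands.
PIGK, chr1:77219431-77219680, minus strand: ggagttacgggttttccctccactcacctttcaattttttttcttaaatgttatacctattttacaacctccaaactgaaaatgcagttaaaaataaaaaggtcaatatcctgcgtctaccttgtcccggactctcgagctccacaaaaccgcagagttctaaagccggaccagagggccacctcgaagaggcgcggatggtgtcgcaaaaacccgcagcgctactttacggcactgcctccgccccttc
NDST1, chr5:150497529-150497778, plus strand: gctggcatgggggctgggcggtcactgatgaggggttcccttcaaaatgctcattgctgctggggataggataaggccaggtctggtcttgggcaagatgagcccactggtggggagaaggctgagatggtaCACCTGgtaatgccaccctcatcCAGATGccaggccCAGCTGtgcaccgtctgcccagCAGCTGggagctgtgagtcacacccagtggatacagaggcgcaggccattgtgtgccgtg
SGMS1, chr10:50623957-50624206, minus strand: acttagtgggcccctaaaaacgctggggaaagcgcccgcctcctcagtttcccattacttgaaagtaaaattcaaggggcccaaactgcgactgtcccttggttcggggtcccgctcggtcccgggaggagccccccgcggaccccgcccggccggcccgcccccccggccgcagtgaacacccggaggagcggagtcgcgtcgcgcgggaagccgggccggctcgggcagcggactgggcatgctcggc
The NDST1 window held 4 such matches, 118, 95, 82 and 60 bases before the start, and the PIGK and SGMS1 windows held 0. Of the members not shown, the RAB35 window held 0 matches, the PIP5K1A window 1, and the 3 SGMS2 windows 0, 0 and 1. Of 35116 windows of this length in the RefSeq table, 61.8% held at least 1 match. How many held as many as NDST1 was not counted, and a link to TWIST1 was not tested. A match describes the letters and not a bound site, and for NDST1 and SGMS1 the RefSeq start lies inside the span that GENCODE gives the gene. The RefSeq table held 6 of the 8 members.

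The members lie on 7 chromosomes, and their positions are given on GRCh38 with the annotation of GENCODE release 29, which the table shares. EOGT (ENSG00000163378) lies at chr3:68975214-69013961 on the minus strand, and CPQ (ENSG00000104324) at chr8:96645227-97149654 on the plus strand. PIGK (ENSG00000142892) lies at chr1:77088990-77219430 on the minus strand, and NDST1 (ENSG00000070614) at chr5:150485818-150558211 on the plus strand. SGMS1 (ENSG00000198964) lies at chr10:50305586-50625163 on the minus strand, and SGMS2 (ENSG00000164023) at chr4:107824563-107915047 on the plus strand. PIP5K1A (ENSG00000143398) lies at chr1:151197949-151249536 on the plus strand, and RAB35 (ENSG00000111737) at chr12:120095095-120117502 on the minus strand. All 8 are protein-coding, and their merged exons cover from 3457 bases for CPQ to 9529 bases for NDST1.

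Reads on genes numbered between 33882496 and 40285223 per library. A count of 0 therefore allows up to 3 reads, or between 0.0745 and 0.0885 CPM (reads per 1000000 on genes). The library labelled PBS stood apart from the others. In it, 251 genes that reached 100 reads in each Mig library had no more than 3 reads, and 13 genes showed the opposite. Mitochondrial genes took 2.69% of its reads and 5.00% to 5.16% in the Mig libraries, and KRT19, a keratin of simple epithelia, had 11287 reads there and 32 to 75 in the Mig libraries. Of 10 hepatocyte markers, 2 to 5 had more than 3 reads in a library. ALB, AFP, APOB and TTR, which encode secreted proteins, had 0 reads in all 4 libraries, and the identity of the line was not tested. HNF4A, a hepatocyte transcription factor, had 134 to 246 reads. FGB, a chain of fibrinogen, had 0 reads with PBS and 561 to 832 with Migs. The summed FPKM of the hepatocyte markers was 0.68 in the PBS library and 6.62 to 9.42 in the Mig libraries, of which FGB alone made up 6.03 to 8.69. The summed FPKM of 5 epithelial markers was 920.0 in the PBS library and 1100 to 1300 in the Mig libraries. Of these, only KRT19 was lower with Migs. KRT8 stood at 444.0 FPKM with PBS and 546.0 to 647.0 with Migs, KRT18 at 330.0 and 539.0 to 639.0, and EPCAM at 6.63 and 16.8 to 18.0. CDH1, the gene of E-cadherin, had 0 reads with PBS and 112 to 123 with Migs. The sum over 6 mesenchymal markers was 75.1 with PBS and 179.0 to 185.0 with Migs. SPARC (0 with PBS and 80.7 to 89.0 FPKM with Migs), FN1 (0.915 and 22.8 to 27.0) and COL1A1 (2.01 and 10.0 to 10.5) were higher with Migs, CDH2 (17.4 and 7.02 to 7.64) was lower, and VIM stood at 54.8 with PBS and 49.7 to 55.0 with Migs. The 3 endothelial markers summed to at most 0.757 and the 3 leukocyte markers to at most 0.0856. Each treatment is 1 library, so a difference of the PBS library as such cannot be told apart from an effect of Migs, and the part of these differences in the results below was not tested. Whether the cells of the PBS library were otherwise the same as those of the Mig libraries cannot be checked from the labels or the reads, and each fold change against PBS is subject to this doubt. In bulk RNA, a change in the share of a kind of cell and a change in RNA per cell cannot be told apart either.

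The 8 members ranged from 0.134 to 29.4 FPKM, the reads per length of gene and size of library, which puts genes on a common scale. The length is that of all annotated exons merged and not of the transcripts present, so the order of genes rests on these lengths. PIP5K1A was the highest in every library, followed by RAB35, NDST1 and PIGK in that order. CPQ was the lowest in every library. PIP5K1A stood at 27.5 FPKM in the PBS library and at 29.4, 27.2 and 28.5 FPKM in the normo-Migs, hypo-Migs and CD147KO-Migs libraries. RAB35 stood at 23.2, 28.3, 26.2 and 26.7 FPKM in the same order of libraries. Those 2 genes were neighbours whose levels did not differ beyond counting error with normo-Migs (ratio of FPKM 1.04, 95% interval 0.998 to 1.08) and hypo-Migs (1.04, 0.999 to 1.08). With PBS the ratio was 1.18 (1.13 to 1.24) and with CD147KO-Migs 1.07 (1.02 to 1.11). The order changed for SGMS1, which was the seventh with PBS, below SGMS2 and EOGT, and the fifth in each Mig library, above both. In the PBS library EOGT and SGMS1 did not differ beyond counting error (ratio 1.11, 0.994 to 1.23).

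**Figure D1:**
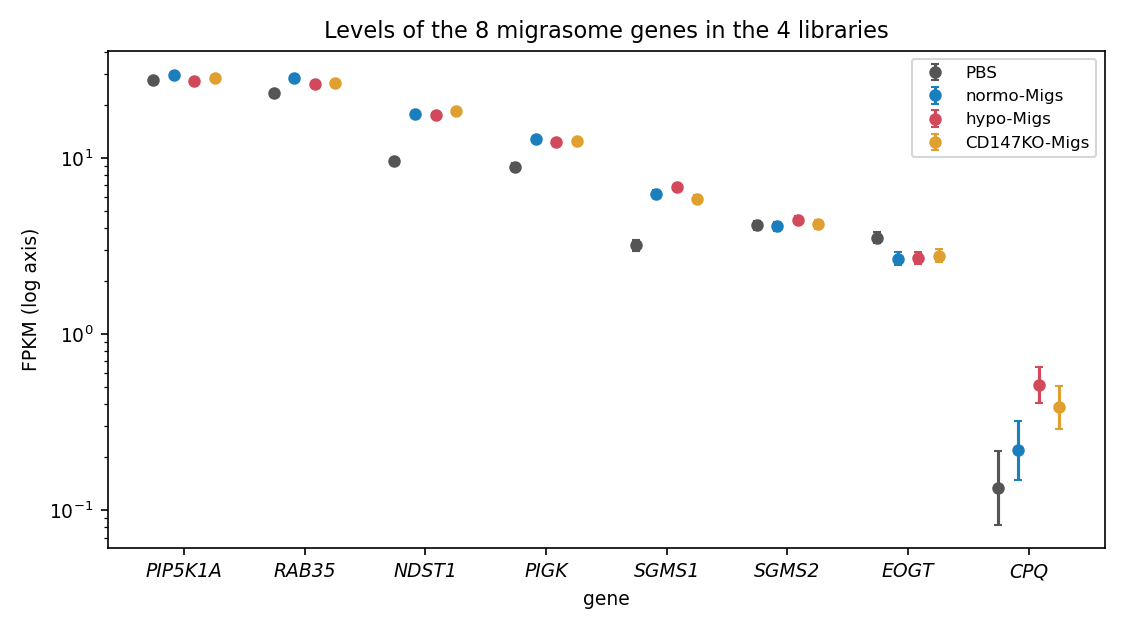
FPKM of the 8 genes on a log axis in the 4 libraries, with 1 point per library and bars for the 95% Wilson interval of the reads, which covers counting error only. NDST1, PIGK, SGMS1, RAB35 and CPQ were lowest with PBS, though CPQ did not differ beyond counting error between PBS and normo-Migs. EOGT was highest with PBS, and CPQ lay below 1 FPKM in every library.

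Libraries were compared by the log2 fold change of their scaled reads and by the exact 95% interval of the ratio of reads. With 1 library per condition no p-value is given, and the interval covers counting error, not the spread between cultures. Each interval is that of a single gene and is not adjusted for the number of genes compared. A gene was counted as past the fold where the log2 fold change was 1 or more in size, and as beyond counting error where the interval left out 0. All 8 members had the 10 reads in at least 1 library that a gene needed to be compared, as did 19895 genes in all.

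Between hypo-Migs and normo-Migs, CPQ was the only member past the fold, and it was higher with hypo-Migs. Past the fold were 9.34% of all genes compared. Beyond counting error were 4 of 8 members, against 34.9% of all genes. CPQ and SGMS1 were higher with hypo-Migs, and PIP5K1A and RAB35 lower. Apart from CPQ, the fold changes were small, from -0.11 for PIP5K1A and RAB35 to 0.13 for SGMS1 on the log2 scale. The median over the 8 members was -0.01, and that over all genes was 0.

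Between hypo-Migs and CD147KO-Migs, 0 of 8 members were past the fold (all genes, 9.12%) and 3 were beyond counting error (all genes, 35%). SGMS1 was higher with hypo-Migs, with a log2 fold change of 0.21, whereas NDST1 (-0.08) and PIP5K1A (-0.07) were lower. Between normo-Migs and CD147KO-Migs, again 0 members were past the fold (9.69%) and 3 were beyond counting error (34.5%). RAB35 was higher with normo-Migs, by 0.08, and NDST1 (-0.07) and CPQ (-0.77) were lower. These 3 comparisons share libraries with one another, and the 3 Mig libraries are different conditions, not replicates.

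**Figure D2:**
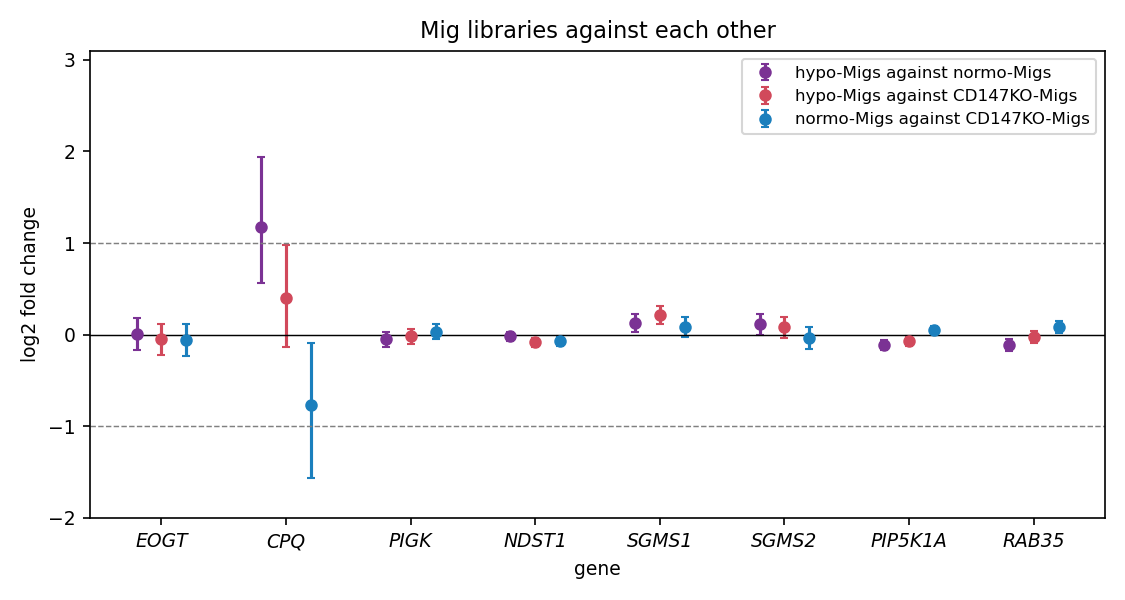
Log2 fold changes between the Mig libraries for each of the 8 genes, with the exact 95% interval of the ratio of reads as bars, the fold threshold dashed and 0 as a solid line. CPQ alone passes the threshold, at 1.18 with hypo-Migs against normo-Migs, while the other 7 genes lie between -0.11 and 0.21.

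Against the PBS library, more members differed, and most were higher with Migs. With normo-Migs, 0 members were past the fold (all genes, 30.2%) and 6 were beyond counting error (70.7%), 5 of them higher (37.3%). With hypo-Migs, CPQ and SGMS1 were past the fold, which makes 2 of 8 (30.5%), and 6 were beyond counting error (72.1%), 5 of them higher (38.1%). With CD147KO-Migs, CPQ was past the fold (30.3%), and 7 were beyond counting error (70.9%), 6 of them higher (37.2%). The members past the fold made up at most 2 of 8, no larger a share than that of all genes. PIGK, NDST1, SGMS1 and RAB35 were higher beyond counting error in all 3 comparisons, as were 30.2% of all genes, and EOGT was lower in all 3, as were 27.1%. The median log2 fold change of the members was 0.42 for normo-Migs, 0.33 for hypo-Migs and 0.36 in the CD147KO-Migs library, where the median of all genes was 0.03, 0.04 and 0.03. All 3 comparisons use the same PBS library.

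**Figure D3:**
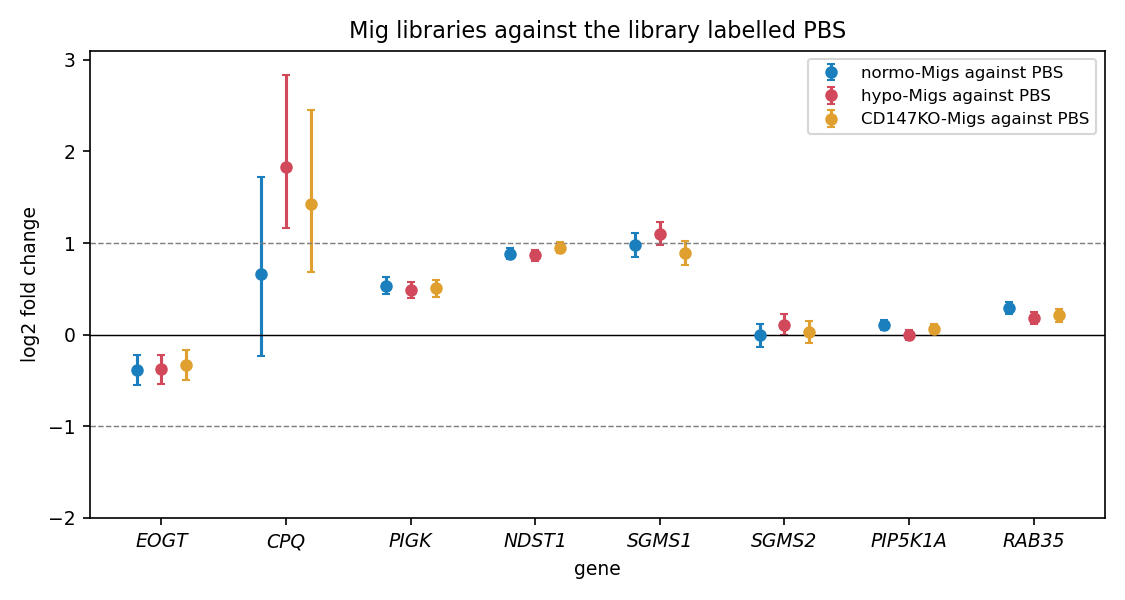
Log2 fold changes of each Mig library against the library labelled PBS for the 8 genes, with the exact 95% interval of the ratio of reads as bars, the fold threshold dashed and 0 as a solid line. NDST1 and SGMS1 lie near the threshold at 0.87 to 1.10, PIGK at 0.49 to 0.54, EOGT below 0, and SGMS2 and PIP5K1A near 0 in all 3.

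Among the markers, EOGT, which the study used to identify Migs, was the one member lower with every kind of Migs than with PBS. It had 689 reads in the PBS library and 520, 615 and 556 in the normo-Migs, hypo-Migs and CD147KO-Migs libraries, which is 3.53, 2.68, 2.69 and 2.79 FPKM. The PBS library was highest and the 3 Mig libraries lay close together. Against PBS the log2 fold change was -0.39 (-0.55 to -0.22) for normo-Migs, -0.38 (-0.54 to -0.22) for hypo-Migs and -0.33 (-0.49 to -0.17) in the CD147KO-Migs library. Over the 3 Mig libraries EOGT varied by 0.06 on the log2 scale, less than the median of 0.14 over the 11051 genes that reached 100 reads in all 4 libraries. Only 21 exonic bases of EOGT (0.372%) overlapped an antisense gene, AC109587.1.

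The other Mig markers that the study blotted beside EOGT, integrin α5 (ITGA5) and TSPAN4, were lower with Migs as well. TSPAN4 had 3359 reads in the PBS library and 2066, 2061 and 2193 in the normo-Migs, hypo-Migs and CD147KO-Migs libraries. Its log2 fold change against PBS lay between -0.92 and -0.64. ITGA5 had 11115, 9364, 9888 and 7811 reads in the same order, and its log2 fold change lay between -0.53 and -0.23. Neither gene was past the fold in any of the 6 comparisons (all genes, 9.12% to 9.69% between Migs and 30.2% to 30.5% against PBS). Both were lower than with PBS beyond counting error with each kind of Migs, as were 27.1% of all genes.

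CPQ, the secreted carboxypeptidase, was the member that differed most between libraries and also the one measured with the fewest reads. It had 16 reads in the PBS library and 26, 72 and 47 in the normo-Migs, hypo-Migs and CD147KO-Migs libraries, or 0.134, 0.219, 0.514 and 0.385 FPKM. The hypo-Migs library was the highest and the PBS library the lowest. The log2 fold change of hypo-Migs was 1.18 (0.57 to 1.94) against normo-Migs and 1.83 (1.16 to 2.83) against PBS. Against CD147KO-Migs it was 0.40 (-0.13 to 0.98), so that these libraries did not differ beyond counting error. CD147KO-Migs against PBS gave 1.43 (0.69 to 2.45), and normo-Migs against PBS gave 0.66 (-0.23 to 1.72). On log2(FPKM + 0.1) hypo-Migs against normo-Migs stood at 0.95, below the fold. Genes with as few reads vary more between these libraries. Among the 2887 genes with a mean of 20 to 80 reads over the Mig libraries, the median spread was 0.66, 86.0% had a smaller spread than the 1.18 of CPQ, and 5.79% were past the fold and higher with hypo-Migs than with normo-Migs. CPQ shared no stretch of 50 bases with another annotated gene. The protein-coding genes whose profile over the 4 libraries lay closest to that of CPQ were NINJ2 and TNXB, of 11252 compared. NINJ2, a cell adhesion protein, had 104, 235, 425 and 334 reads in the order PBS, normo-Migs, hypo-Migs and CD147KO-Migs, at a distance of 0.446 on the log2 scale. TNXB, the matrix protein tenascin-X, which has a partial pseudogene copy, TNXA, had 76, 129, 230 and 181 reads at a distance of 0.447.

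PIGK was higher in each Mig library than with PBS, by nearly the same factor. It had 1698 reads in the PBS library and 2432, 2766 and 2446 in the normo-Migs, hypo-Migs and CD147KO-Migs libraries, or 8.91, 12.8, 12.4 and 12.5 FPKM. The PBS library lay below the Mig libraries, which did not differ from one another beyond counting error. The log2 fold change against PBS was 0.54 (0.45 to 0.63), 0.49 (0.40 to 0.57) and 0.51 (0.42 to 0.60) with normo-Migs, hypo-Migs and CD147KO-Migs. Its spread over the Mig libraries was 0.05, the smallest of the 8 members.

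The 4 other subunits of the GPI transamidase did not move together. None was past the fold in any comparison (all genes, 9.12% to 9.69% between Migs and 30.2% to 30.5% against PBS). PIGT, which holds the complex together, had 4393 reads with PBS and 6725, 8385 and 7450 with normo-Migs, hypo-Migs and CD147KO-Migs, a log2 fold change of 0.63 to 0.74. PIGS had 4794 reads with PBS and 2875, 3231 and 2993 with Migs, a log2 fold change of -0.79 to -0.70. PIGU lay between 0.12 and 0.20. Ratios of FPKM within a library do not depend on the scaling between libraries. That of PIGK to GPAA1, a subunit that binds the GPI lipid, was 0.201 with PBS and 0.262 to 0.270 with Migs. The ratio of PIGK to PIGS was 0.385 with PBS and 0.888 to 0.930 with Migs, and that to PIGU 0.838 and 1.02 to 1.10. Relative to PIGT, PIGK stood at 1.38 (1.30 to 1.46) with PBS and at 1.29 (1.23 to 1.35), 1.18 (1.13 to 1.23) and 1.17 (1.12 to 1.23) with Migs, so that this ratio was lower with Migs, though the intervals of PBS and normo-Migs overlap. PIGT had more reads than PIGK in every library but fewer FPKM, 6.46 against 8.91 with PBS. That this ratio lies above 1 thus rests on the longer merged exons of PIGT.

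NDST1, the last of the markers, was 1.82-fold to 1.93-fold higher with each kind of Migs than with PBS, below the fold threshold. It had 3172 reads in the PBS library and 5780, 6730 and 6223 in the normo-Migs, hypo-Migs and CD147KO-Migs libraries, or 9.63, 17.6, 17.4 and 18.5 FPKM. Its log2 fold change against PBS was 0.88 (0.82 to 0.95), 0.87 (0.81 to 0.93) and 0.95 (0.89 to 1.01) in the same order of Migs. Between Mig libraries the differences were at most 0.08. The related enzymes NDST3 and NDST4 had at most 3 reads in a library. NDST2 had 1 to 5 reads, but 82.9% of its exonic bases overlap a gene on the same strand, AC022400.6, so that its count is uncertain.

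Among 35 other genes of heparan sulphate synthesis and its carrier proteins, 29 were compared. With each kind of Migs, 10 were past the fold and higher than with PBS and 2 were lower, where 18.1% to 18.9% of all genes were higher and 11.6% to 12% lower. Their median log2 fold change was between 0.43 and 0.49. The 6 genes with 0 reads in the PBS library lie above this median even at their lower bound. Setting them to that bound therefore cannot change it. The 2 lower genes were XYLT1, an enzyme that starts the chain, and EXTL1, replaced by SULF1 with CD147KO-Migs. XYLT1 had 410 reads with PBS and 2 to 4 with Migs, and EXTL1 and SULF1 had at most 14 reads. The related XYLT2 had 1902 reads with PBS and 1471, 1618 and 1579 with normo-Migs, hypo-Migs and CD147KO-Migs, a log2 fold change of -0.45 to -0.29. HS6ST2, which adds 6-O-sulphate to the chains, had 0 reads with PBS and 2470, 2850 and 2486 with normo-Migs, hypo-Migs and CD147KO-Migs, at least 817-fold higher when 3 reads are allowed for the PBS library. SDC2, a syndecan that carries the chains, had 0 reads with PBS and 2181, 2685 and 2270 with Migs, at least 736-fold higher. Related genes were present in all 4 libraries. HS6ST1 stood at 8.87 FPKM with PBS and 14.9, 15.6 and 14.6 FPKM with Migs, and SDC1 at 61.4 and at 62.4, 58.9 and 58.6 FPKM. SULF2, which removes 6-O-sulphate outside the cell, had 11 reads with PBS and 1944, 2352 and 1841 with Migs. HS6ST2 and SDC2 thus belong to the genes with no more than 3 reads in the PBS library and at least 100 in each Mig library. SULF2, with 11 reads with PBS, lies outside that limit. Between the hypo-Migs and normo-Migs libraries, 0 of the 29 were past the fold (all genes, 9.34%). Past the fold in the other pairs of Mig libraries (all genes, 9.12% and 9.69%) was SULF1, which also removes 6-O-sulphate. It had 14 reads in each of the normo-Migs and hypo-Migs libraries and 2 in the CD147KO-Migs library.

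The sphingomyelin synthases differed from each other. SGMS1, the enzyme of the Golgi, had 710 reads in the PBS library and 1379, 1774 and 1334 in the normo-Migs, hypo-Migs and CD147KO-Migs libraries, or 3.19, 6.24, 6.82 and 5.87 FPKM. SGMS2, found mainly at the cell membrane, had 1095, 1075, 1371 and 1132 reads in the same order, or 4.15, 4.10, 4.44 and 4.19 FPKM. SGMS1 was lowest with PBS and highest with hypo-Migs, whereas the levels of SGMS2 nearly coincided. The log2 fold change of SGMS1 against PBS was 0.97 (0.84 to 1.11) for normo-Migs, 1.10 (0.98 to 1.23) for hypo-Migs and 0.89 (0.76 to 1.02) in the CD147KO-Migs library. That of SGMS2 was -0.01 (-0.13 to 0.12), 0.11 (-0.01 to 0.22) and 0.03 (-0.09 to 0.15). SGMS1 was also higher with hypo-Migs than with normo-Migs, by 0.13 (0.02 to 0.23), and than with CD147KO-Migs, by 0.21 (0.11 to 0.32). On log2(FPKM + 1) SGMS1 stood at 0.90 with hypo-Migs against PBS, below the fold. Its spread over the Mig libraries was 0.21, larger than that of 73.3% of the genes that reached 100 reads in all 4 libraries.

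The ratio of the FPKM of SGMS1 to that of SGMS2, a comparison chosen after the levels were seen, was 0.77 (0.70 to 0.847) with PBS. It was 1.52 (1.41 to 1.65) for normo-Migs, 1.54 (1.43 to 1.65) for hypo-Migs and 1.40 (1.29 to 1.52) in the CD147KO-Migs library. By FPKM, SGMS2 mRNA thus stood above SGMS1 in the PBS library and below it in the 3 Mig libraries, whatever the scaling between them. Which gene is higher within a library also rests on the lengths used, 6429 bases of merged exons for SGMS1 and 7635 for SGMS2. The change of the ratio between libraries does not depend on these lengths. SAMD8, the related enzyme that makes ceramide phosphoethanolamine, had 1163, 1487, 2020 and 1646 reads in the order PBS, normo-Migs, hypo-Migs and CD147KO-Migs. An antisense gene overlapped 207 exonic bases of SGMS1 (3.22%) and had 10 to 36 reads, and another overlapped 600 bases of SGMS2 (7.86%) and had 0 to 3 reads.

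**Figure D4:**
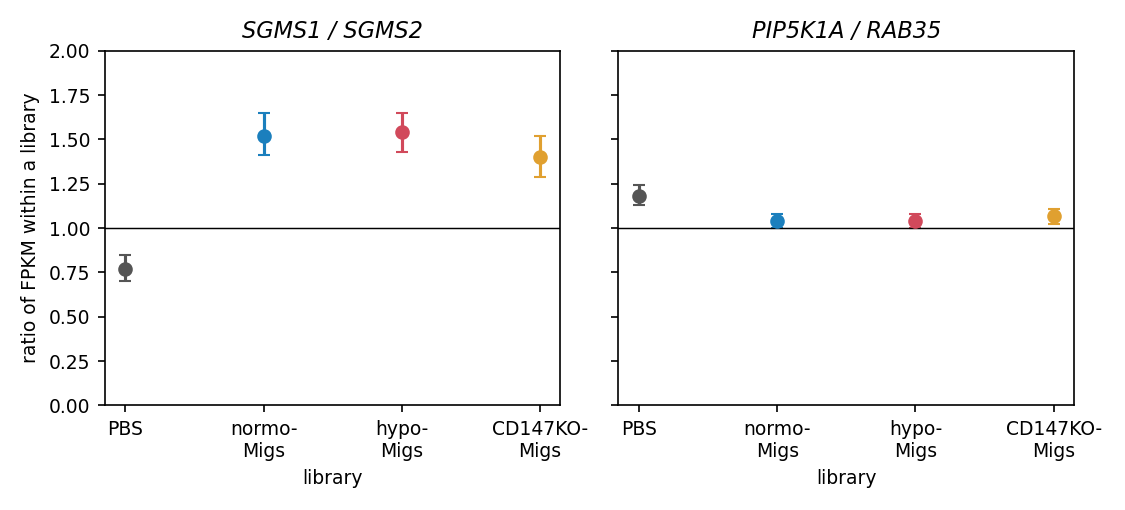
Ratio of FPKM within a library for SGMS1 to SGMS2 (left) and PIP5K1A to RAB35 (right) in the 4 libraries, with exact 95% intervals as bars and a line at a ratio of 1. The ratio of SGMS1 to SGMS2 is 0.77 with PBS and 1.40 to 1.54 with Migs, while that of PIP5K1A to RAB35 is 1.18 with PBS and 1.04 to 1.07 with Migs.

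Of 27 other genes that make, use or break down ceramide and sphingomyelin, 26 were compared. Past the fold against PBS, 5 were higher in the normo-Migs library, 6 in the hypo-Migs library and 4 in the CD147KO-Migs library, and 1 was lower with CD147KO-Migs, where 18.1% to 18.9% of all genes were higher and 11.6% to 12% lower. Higher were CERS4, CERS6, SPTLC3 and ACER3 with each kind of Migs, SGPP1 with normo-Migs and hypo-Migs, and ASAH2 with hypo-Migs, while DEGS2, at 2 to 10 reads, was lower. Their median log2 fold change was between 0.26 and 0.33. CERS6, a ceramide synthase, had 0 reads with PBS and 577, 751 and 590 with normo-Migs, hypo-Migs and CD147KO-Migs, at least 194-fold higher against the 3 reads allowed. CERS4, another ceramide synthase, had 54 reads with PBS and 336, 396 and 332 with Migs. SPTLC3, a subunit of the first enzyme of sphingolipid synthesis, had 10, 73, 119 and 51 reads. In this list, ASAH2 was the one gene of 26 past the fold between hypo-Migs and normo-Migs (all genes, 9.34%), with a log2 fold change of 1.36 (0.725 to 2.2). DEGS2 was the one between hypo-Migs and CD147KO-Migs (9.12%), on 10 and 2 reads. ASAH2 encodes a neutral ceramidase, and had 28 reads in the PBS library and 22, 70 and 34 in the normo-Migs, hypo-Migs and CD147KO-Migs libraries.

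PIP5K1A, the kinase that makes PI(4,5)P2, had the highest FPKM of the members and differed by at most 0.11 on the log2 scale in any comparison. It had 5143 reads in the PBS library and 5464, 5958 and 5440 in the normo-Migs, hypo-Migs and CD147KO-Migs libraries. Its log2 fold change against PBS was 0.11 (0.05 to 0.16) for normo-Migs, -0.01 (-0.06 to 0.05) for hypo-Migs and 0.06 (0.005 to 0.12) in the CD147KO-Migs library. With hypo-Migs it was lower than with normo-Migs by a log2 fold change of -0.11 (-0.17 to -0.06). Of its stretches of 50 bases, 6.36% also occur in other annotated genes, among them PIPSL, a retrocopy with 44 to 57 reads.

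Within its family PIP5K1A took 66.6% of the summed FPKM of PIP5K1A, PIP5K1B and PIP5K1C with PBS and 73.0% to 73.6% with Migs. PIP5K1B had 302 reads in the PBS library and 35, 64 and 35 in the normo-Migs, hypo-Migs and CD147KO-Migs libraries, a log2 fold change of -3.06 to -2.42. PIP5K1C had 2896, 2476, 2702 and 2548 reads. Of 22 other genes of PI4P and PI(4,5)P2 metabolism, all were compared, and against PBS 2 were past the fold and higher with normo-Migs and with CD147KO-Migs and 2 lower (all genes, 18.1% and 18.3% higher and 12% lower). Higher were INPP5J and PIP4P2, and lower were PIP5K1B and PIP5KL1. Their median log2 fold change was between 0.03 and 0.14. PIP4P2, a phosphatase of PI(4,5)P2, had 32 reads with PBS and 207, 249 and 238 with Migs. INPP5J, an inositol polyphosphate 5-phosphatase, had 81, 203, 472 and 425 reads in the order PBS, normo-Migs, hypo-Migs and CD147KO-Migs. Between normo-Migs and CD147KO-Migs INPP5J was the one gene of these 22 past the fold (all genes, 9.69%), at -1.02, and between hypo-Migs and normo-Migs it stood at 0.97.

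RAB35, the GTPase that PI(4,5)P2 recruits, was slightly higher with each kind of Migs than with PBS. It had 3230 reads in the PBS library and 3911, 4264 and 3793 in the normo-Migs, hypo-Migs and CD147KO-Migs libraries. Its log2 fold change against PBS was 0.29 (0.23 to 0.36), 0.18 (0.12 to 0.25) and 0.21 (0.14 to 0.28) in the same order of Migs. With hypo-Migs RAB35 was lower than with normo-Migs, by a log2 fold change of -0.11 (-0.17 to -0.05). An antisense gene, AC004812.2, overlaps 596 exonic bases of RAB35 (14.8%) and had 75 to 100 reads. How the authors' counting treated strands is not given in the sources used here, so reads of this overlap cannot be assigned to either gene.

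Most of the 16 regulators and effectors of RAB35 compared were lower with Migs than with PBS, in contrast to RAB35. Beyond counting error against PBS, 9 to 11 were lower and 2 to 4 higher, where 33.5% to 34% of all genes were lower and 37.2% to 38.1% higher. Their median log2 fold change was -0.29 for normo-Migs, -0.23 for hypo-Migs and -0.20 in the CD147KO-Migs library. ACAP2, an effector that inactivates ARF6, had 3748 reads with PBS and 1690, 2186 and 1716 with Migs. MICALL1, an effector on recycling endosomes, had 2186 reads with PBS and 1206, 1410 and 1230 with Migs. DENND1C, an exchange factor that activates RAB35, had 254 reads with PBS and 151, 156 and 144 with Migs. Past the fold with any Migs (all genes, 30.2% to 30.5%) were ACAP2, which was lower, and TBC1D10C, a GTPase-activating protein with 12 reads with PBS and 68, 56 and 46 with Migs. None of the 16 was past the fold between any of the Mig libraries (all genes, 9.12% to 9.69%).

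Among the 10 other glycosyltransferases of EGF repeats, the pathway of EOGT, 6 or 7 were lower than with PBS beyond counting error with each kind of Migs and 2 or 3 were higher, where 33.5% to 34% of all genes were lower and 37.2% to 38.1% higher. The median log2 fold change lay between -0.41 and -0.23. GXYLT2, which adds xylose to O-glucose, had 27 reads with PBS and 123, 166 and 146 with normo-Migs, hypo-Migs and CD147KO-Migs. XXYLT1, which adds the next xylose, had 1637 reads with PBS and 983, 1019 and 867 with Migs. POGLUT1, which starts this chain with glucose, had 1175 reads with PBS and 770, 913 and 741 with Migs. MFNG, a fringe enzyme, had 83 reads with PBS and 17, 8 and 19 with normo-Migs, hypo-Migs and CD147KO-Migs, a log2 fold change of -3.27 to -2.04. Past the fold against PBS with each kind of Migs, 1 of the 10 was higher, GXYLT2, and 1 lower, MFNG (all genes, 18.1% to 18.9% and 11.6% to 12%). MFNG was also past the fold in both comparisons of hypo-Migs with other Migs (all genes, 9.34% and 9.12%), but on these few reads.

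Of 7 other proteins described in Mig formation or in the loading of mitochondria into Migs, SYT1 was the one past the fold against PBS (all genes, 30.2% to 30.5%). SYT1, the calcium sensor of regulated secretion, had 0 reads in the PBS library and 49, 101 and 55 in the normo-Migs, hypo-Migs and CD147KO-Migs libraries, at least 16.5-fold higher against the 3 reads allowed. KIF5B, a motor that carries mitochondria, had 4671 reads with PBS and 8122, 10439 and 8493 with Migs, a log2 fold change of 0.82 to 0.94. DNM1L, the GTPase of mitochondrial fission, had 4785 reads with PBS and 5818, 7352 and 5992 with Migs, a log2 fold change of 0.30 to 0.40. Between Mig libraries, 0 of the 7 were past the fold (all genes, 9.12% to 9.69%). Beyond counting error, 4 were higher with hypo-Migs than with normo-Migs and 0 lower (all genes, 16.6% and 18.2%). The log2 fold changes were 0.10 for DNM1L, 0.13 for KIF5B, 0.16 for CAV1 and 0.78 for SYT1, the last on 101 and 49 reads. Genes with many reads leave the interval at such small differences. Against CD147KO-Migs, 5 were higher with hypo-Migs and 0 lower (17.3% and 17.6%). These were SYT1, at 0.66, and RAB10, ROCK1, DNM1L and KIF5B, at 0.08 to 0.10. With normo-Migs against CD147KO-Migs, 1 was higher and 1 lower (17.9% and 16.6%).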

How the data were processed

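RNA from 4 libraries of MHCC-97H cells was sequenced. The authors deposited raw read counts per gene and FPKM, for which they divided reads by the length of the gene and the size of the library. The submitters' processing notes name CASAVA 1.8, fastp, HISAT2 2.0.5 and featureCounts 1.5.0-p3, with build hg38; the handling of strands is not given in the sources used here. Counts were scaled by TMM in edgeR 4.0.16 (R 4.3.3) over the 19895 genes that reached 10 reads in some library, and the prior count for log2 fold changes was 2. Exact (Clopper-Pearson) 95% intervals of read ratios, and Wilson intervals of levels, cover counting error only, since each condition has 1 library. PCR copies were not marked by molecular identifiers, and the intervals make no allowance for them. The 8 genes, the gene lists and the rule for named genes were chosen with earlier results of these data known. All list genes past the fold between hypo-Migs and other Migs with at least 50 reads, and up to 3 per list with the largest mean change against PBS among those with at least 100 reads, were named. Other list genes in the text, such as TBC1D10C and XYLT1, were named after their values were seen. Scripts were tested on simulated data. Python 3.11.15 with pandas 2.3.3 and matplotlib 3.10.9 was used. One result of a gene list is not reported here.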

Additional observations from a re-analysis of the deposited data

How the results depend on the processing

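With 1 library per condition, no result has been set against the spread between cultures, and the precision given is that of counting; CPQ, with 16 to 72 reads, is the least certain member. No paired analysis was possible because each condition has 1 library. The fold changes of the 8 genes in the 6 comparisons (48 values) kept their sign under every alternative where they were past the fold. Values near 0 changed sign for SGMS2 in CD147KO-Migs against PBS with total reads and for PIP5K1A in hypo-Migs against PBS with either other filter on reads. DESeq2 size factors, total reads, no filter on reads, a filter of 10 reads in every library, a prior count of 0.25, the exact binomial test added to the fold, and, for the Mig pairs, scaling without the PBS library (chosen after seeing the data; largest shift 0.0013) left every count of members past the fold as it was. On log2(FPKM + 1), members past the fold numbered 0 for hypo-Migs against normo-Migs, 0 for hypo-Migs against PBS and 0 for CD147KO-Migs against PBS, and CPQ stood at 0.31, 0.42 and 0.29, since this scale understates low genes. On log2(FPKM + 0.1) the first count was 0. At a fold of 1.5, 1 member passed for normo-Migs against CD147KO-Migs, 3 for normo-Migs against PBS, 3 for hypo-Migs against PBS (with NDST1 added) and 3 for CD147KO-Migs against PBS. With an exact test at an adjusted p of 0.05 and an assumed coefficient of variation of 0.1, 0 passed for hypo-Migs against normo-Migs. At a coefficient of 0.4, 0 passed there, 0 for hypo-Migs against PBS and 0 for CD147KO-Migs against PBS. DESeq2 with the 4 libraries taken as replicates gave 0 members and 0 genes in every pair, where 1 to 7 genes had an unadjusted p under 0.05 between Migs, 1246 to 1296 against PBS, and 0 of them were members. Over all genes, 1814 to 1928 were past the fold between Migs and 6003 to 6068 against PBS. These counts were 4968 to 5930 and 9625 to 10760 without a filter, 233 to 264 and 2684 to 2753 with 10 reads in every library, 56 to 80 and 1619 to 1674 on log2(FPKM + 1), 3630 to 3676 and 9614 to 9704 at a fold of 1.5, and 1005 to 1037 and 4674 to 4820 on log2(FPKM + 0.1). With the exact binomial test they were 967 to 1003 and 5415 to 5637, at the coefficient of 0.1 they were 228 to 281 and 5008 to 5261, and at 0.4 they were 0 to 2 and 1535 to 1633.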
